A study of Mus musculus with 12 samples.

Results

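Late-passage LM8 cells were compared with late-passage Dunn cells on 6 of the 12 arrays of the series, 3 for each line, chosen by line and passage from the labels. Dunn is a mouse osteosarcoma line of low metastatic potential, and LM8 was derived from Dunn by selection in mice for spread to the lung. The late Dunn cells were at passage 86 and the late LM8 cells at passage 91, while the other 6 arrays held Dunn at passage 25 and LM8 at passage 24. No gene had been altered and no agent was under test in any group, and both lines grew in the same medium with fetal calf serum. Each line is 1 cell line, so a difference between them rests on 1 parental line and 1 derivative. The paper describes the 3 samples of a group as independent extracts and does not say whether they came from separate cultures. On each of 3 slides lay 1 array of each group. A group always had the same position on the slide, so array position and group cannot be told apart.

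Osteosarcoma is a malignant bone tumour whose cells make bone matrix and tend to spread to the lung. Cells that leave a tumour loosen their contacts with collagens, laminins and fibronectin, cut through matrix with proteases, and meet T cells and natural killer cells that read class I antigens on their surface. Runx2 and Sp7 drive cells into the osteoblast lineage, and Alpl, Ibsp and Bglap2 mark their maturation.

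A level is given here as the log2 of the processed signal of a probe minus the log2 of the 75th percentile of its array, so a difference of 1 is a change of 2-fold. Each gene was represented by 1 probe, and kept where the signal was well above background on all 3 arrays of at least 1 line, which left 12530 genes. A gene was called when the lines differed by more than 2-fold with an adjusted p under 0.05 in limma. Between 53.3% and 59.8% of probes were well above background on the 6 arrays. The first late Dunn array stood apart. It correlated with the other late Dunn arrays at r = 0.944, against 0.979 between those and 0.988 to 0.992 among the LM8 arrays, and the median signal of its dim probes was 13.2 against 2.64 to 3.46 on the other arrays.

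Of the 12530 genes, 1691 were called, which is 13.5% of those tested. In LM8 cells 714 genes were higher (5.7%) and 977 were lower (7.8%). Of the 10812 genes well above background on all 6 arrays 1195 were called (11.1%), 398 higher (3.68%) and 797 lower (7.37%). A further 1509 genes passed the filter through LM8 alone, of which 316 were called higher and 21 lower. Another 209 passed through Dunn alone, of which 159 were called lower and 0 higher. Genes that pass through 1 line alone are high there by the filter, so their counts are a description. The levels of all 1691 called genes did not overlap between the lines, as held for 50% of all genes tested. The median difference over all genes tested was -0.18, and each difference is relative to the scaling. On the deposited table without scaling 87.8% of the calls were higher in LM8, against 42.2% with the 75th percentile. Without the first late Dunn array 2128 genes were called, without LM8 array 2 821 and without LM8 array 3 942.

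**Figure D1:**
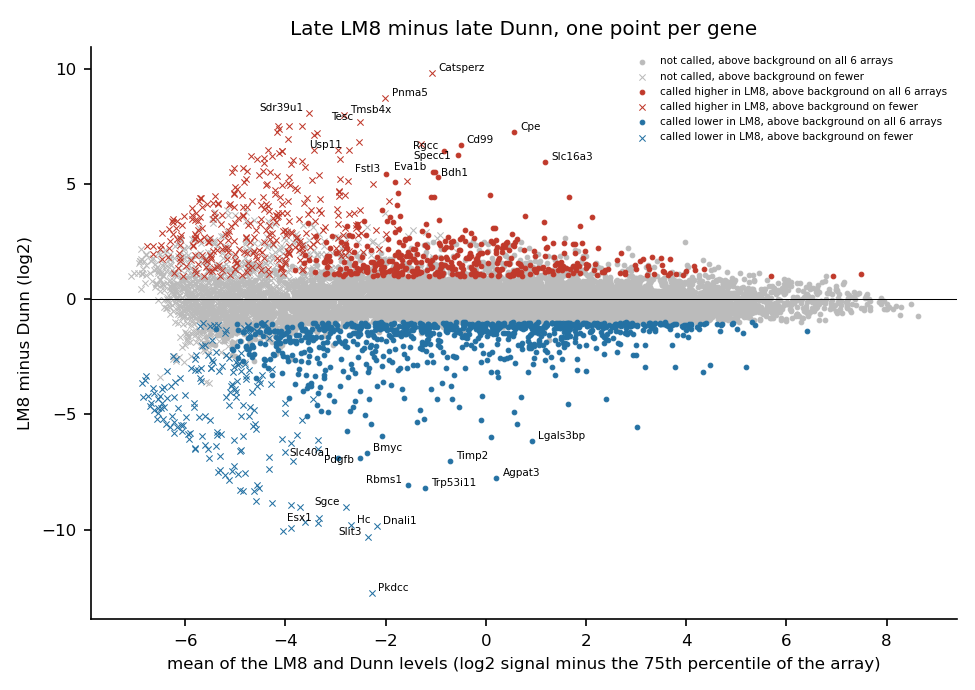
Difference between late LM8 and late Dunn cells (y axis, log2) against the mean of both levels (x axis, log2 signal minus the 75th percentile of the array), 1 point for each of the 12530 genes. Dots are genes well above background on all 6 arrays and crosses those above it on fewer, with the 714 genes called higher in LM8 in red and the 977 called lower in blue. Pkdcc, at -12.76, lies farthest from 0.

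Among genes well above background on all 6 arrays, 123 were higher in LM8 by more than 4-fold and 16 by more than 16-fold, while 208 and 40 were lower by as much. Cpe, carboxypeptidase E, an enzyme that trims prohormones, had the highest difference of these genes. Its level was 4.04, 4.00 and 4.57 on the LM8 arrays and -2.67, -3.51 and -2.99 on the Dunn arrays, 153-fold apart (log2 difference 7.26, SE 0.28, adjusted p = 5.7e-05). All 3 of its probes were called. Cd99, a surface glycoprotein of white blood cells and many tumours, stood at 2.97, 3.06 and 2.48 in LM8 and at -2.82, -4.24 and -4.48 in Dunn, 103-fold higher in LM8 (SE 0.46 on the log2 scale, adjusted p = 0.0005). For both genes every LM8 array lay above every Dunn array.

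Slc16a3 encodes MCT4, the transporter by which glycolytic cells release lactate. Its level was 4.31, 4.33 and 3.85 in LM8 and -1.57, -1.75 and -2.08 in Dunn, 62.3-fold higher in LM8 (SE 0.22 on the log2 scale, adjusted p = 4.9e-05). Rgcc, a regulator of the cell cycle, was 87.0-fold higher and the cytospin Specc1 78.2-fold higher. The membrane protein gene Eva1b was 46.0-fold higher, and the ketone body enzyme Bdh1 45.9-fold higher. Fstl3, a secreted binder of activins, was 42.9-fold higher, with 0.77, 0.79 and 0.62 in LM8 and -3.51, -5.39 and -5.2 in Dunn. Its Dunn levels spread more than those in LM8, the first Dunn array reading highest, and the groups did not overlap.

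On the lower side Trp53i11, a gene named for its induction by p53, differed most. Its level was -5.57, -5.13 and -5.25 in LM8 and 2.67 and 3.12 on Dunn arrays 1 and 3, the spot on array 2 having been left out as an outlier. Over these 5 values it was 297-fold lower in LM8 (SE 0.25 on the log2 scale, adjusted p = 9.4e-05). Rbms1, an RNA-binding protein, was 271-fold lower, with -5.50, -5.71 and -5.57 in LM8 against 2.15, 2.62 and 2.70 in Dunn. Agpat3, an enzyme of phospholipid synthesis, was 218-fold lower, with -3.36, -3.85 and -3.80 against 4.02, 4.19 and 4.08. In all 3 genes the arrays of a line lay close together and far from those of the other line.

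Timp2, an inhibitor of matrix metalloproteinases, read -3.56, -4.06 and -5.05 in LM8 and 2.62, 2.62 and 3.11 in Dunn, 129-fold lower in LM8 (SE 0.40 on the log2 scale, adjusted p = 0.00025). Pdgfb, the B chain of platelet-derived growth factor, read -6.17, -5.64 and -6.10 against 1.09, 0.91 and 0.82, 120-fold lower. The iron exporter ferroportin, Slc40a1, was 120-fold lower. Bmyc, a relative of Myc, was 101-fold lower and the galectin ligand Lgals3bp 71.0-fold lower. The calls of these 16 genes held under each of the 19 alternative settings.

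**Figure D2:**
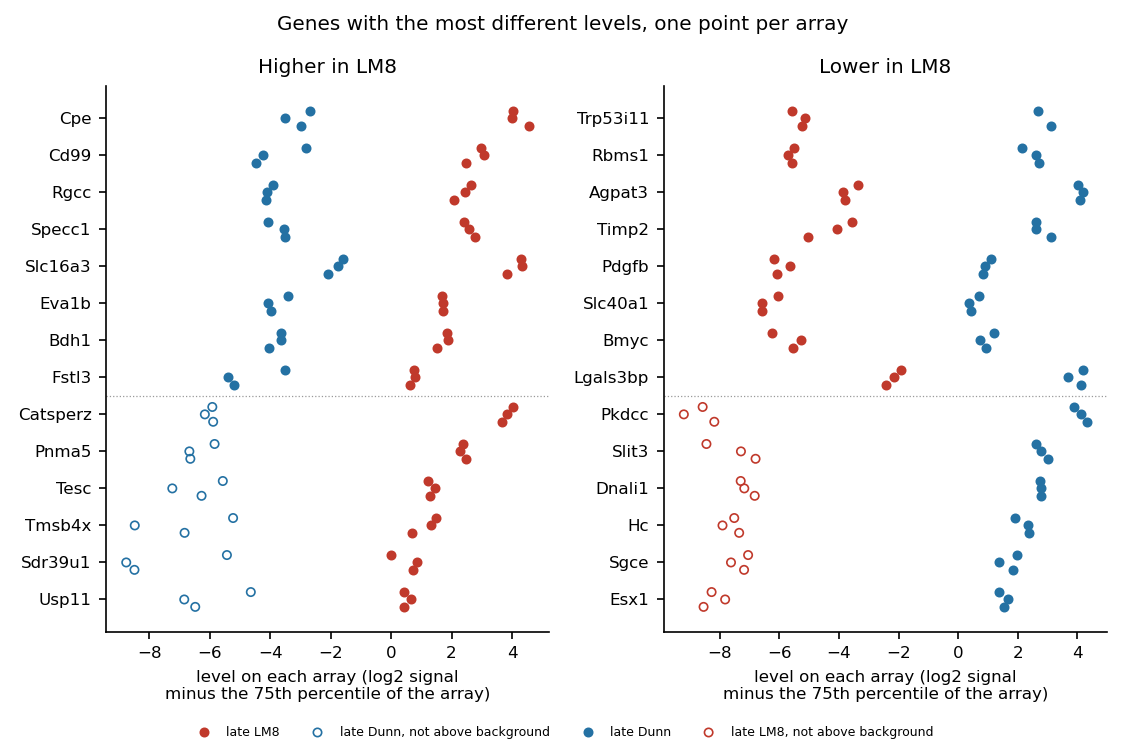
Levels on each of the 6 late arrays (x axis, log2 signal minus the 75th percentile of the array) for the genes highest (left) and lowest (right) in LM8, with LM8 in red and Dunn in blue. Filled points belong to a line whose 3 arrays were well above background and open points to a line with none, the genes of the latter kind standing below the dotted line. The lines overlap in no gene shown, and the closest approach is in Fstl3, between 0.62 on an LM8 array and -3.51 on a Dunn array.

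A second set of genes had signal in 1 line and none above background in the other. In this set 159 genes called higher were not well above background on any late Dunn array, and 113 called lower were not on any late LM8 array. The fold of such a gene is a lower bound, taken against the higher of the signal of the probe and the lowest signal well above background on each array. Where only some arrays of the lower line were above background, their number is given, and the fold rests in part on readings near background. The genes of the second set are introduced with the bases before their start sites, because they were on in 1 line and at background in the other. The 250 bases upstream of the RefSeq start (GRCm38.p6) are shown for the 2 highest bounds in each direction, 5′ to 3′ on the strand of the gene, with CG dinucleotides in capitals. Pkdcc is at chr17:83215033-83215282 (plus strand), Slit3 at chr11:35121206-35121455 (plus strand), Catsperz at chr19:6925381-6925630 (minus strand) and Pnma5 at chrX:73037104-73037353 (minus strand).
Pkdcc: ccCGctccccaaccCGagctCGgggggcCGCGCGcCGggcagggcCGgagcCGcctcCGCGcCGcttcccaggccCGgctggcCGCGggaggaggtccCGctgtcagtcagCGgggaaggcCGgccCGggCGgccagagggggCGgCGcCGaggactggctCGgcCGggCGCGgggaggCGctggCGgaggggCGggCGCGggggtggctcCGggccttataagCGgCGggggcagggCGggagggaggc
Slit3: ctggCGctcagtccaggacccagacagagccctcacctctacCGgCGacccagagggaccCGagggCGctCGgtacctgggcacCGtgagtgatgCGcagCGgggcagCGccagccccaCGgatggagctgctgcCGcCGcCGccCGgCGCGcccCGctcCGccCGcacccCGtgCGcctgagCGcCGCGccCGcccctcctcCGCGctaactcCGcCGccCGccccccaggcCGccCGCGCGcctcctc
Catsperz: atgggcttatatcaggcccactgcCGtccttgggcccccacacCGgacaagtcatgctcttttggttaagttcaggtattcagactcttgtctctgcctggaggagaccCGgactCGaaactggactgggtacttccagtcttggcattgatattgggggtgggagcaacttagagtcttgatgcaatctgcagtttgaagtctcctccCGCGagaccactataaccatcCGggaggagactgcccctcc
Pnma5: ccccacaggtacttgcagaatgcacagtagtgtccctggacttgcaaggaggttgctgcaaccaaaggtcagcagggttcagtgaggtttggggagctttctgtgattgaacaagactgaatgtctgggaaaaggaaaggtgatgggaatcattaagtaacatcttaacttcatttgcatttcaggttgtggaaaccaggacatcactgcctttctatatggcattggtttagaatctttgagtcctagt
Pkdcc had 36 CG, a number reached by 2.58% of the 32851 upstream sequences in the table, and Slit3 had 35 CG, reached by 2.97%. Catsperz had 7 CG, reached by 46.3%, and Pnma5 had 0. The median over the table was 6. Of the other genes of the set Tesc had 26 CG, Esx1 24, Tmsb4x 15, Dnali1 11, Usp11 5 and Hc 2, and the 2 starts of Sdr39u1 had 17 and 20. DNA methylation was not measured on these arrays.

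Pkdcc, a secreted tyrosine kinase needed for limb growth, had the highest bound. It read 3.87, 4.12 and 4.31 in Dunn and -8.57, -9.21 and -8.18 in LM8, at least 1982-fold lower in LM8 (adjusted p = 2.4e-05). Slit3, a secreted guidance ligand of Robo receptors, read 2.60, 2.77 and 3.02 in Dunn and -8.45, -7.29 and -6.80 in LM8, at least 802-fold lower. Both were bright on all 3 Dunn arrays and at background on all 3 LM8 arrays. Dnali1, a dynein light chain, was at least 779-fold lower, and Hc, complement component C5, at least 537-fold lower. The sarcoglycan Sgce was at least 383-fold lower and the X-linked homeobox gene Esx1 at least 331-fold lower.

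In the other direction Catsperz, an auxiliary subunit of the sperm calcium channel, read 4.03, 3.83 and 3.67 in LM8 and -5.91, -6.16 and -5.88 in Dunn, at least 638-fold higher in LM8 (adjusted p = 1.8e-05). Pnma5, a paraneoplastic antigen relative on the X chromosome, read 2.39, 2.27 and 2.47 in LM8 and -5.84, -6.67 and -6.64 in Dunn, at least 263-fold higher. Tesc, a calcium-binding protein, was at least 127-fold higher and Tmsb4x, an actin-binding thymosin, at least 114-fold higher. Sdr39u1, named as a short-chain dehydrogenase relative, was at least 72.5-fold higher and the deubiquitinase Usp11 at least 72.3-fold higher. The first Dunn array read above both others for Tesc, Tmsb4x, Sdr39u1 and Usp11, and was below background in each. The calls of these 12 genes held under each alternative that kept the gene.

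Most of the tested genes by which cells show class I antigens were called lower in LM8. Class I molecules carry peptides that the immunoproteasome cuts and Tap transporters pump into the secretory pathway. Of 22 tested members 14 were called lower and 0 higher, 63.6% against 13.5% of all genes, with a median difference of -1.42 against -0.18. At an unadjusted p under 0.05 in limma 18 were lower and 0 higher, and the t-test called 11 lower and 0 higher. For such counts, here and in the lists below, no share of all genes is given, so they only describe the members. Nlrc5, the transactivator of class I genes, read -3.24, -2.82 and -2.0 in LM8 and 0.79, 1.00 and 1.04 in Dunn, 12.4-fold lower (SE 0.33 on the log2 scale, adjusted p = 0.0014). The immunoproteasome subunit Psmb8 read -0.24, 0.16 and -0.35 against 3.0, 2.54 and 2.80, 7.58-fold lower. Neither gene overlapped between the lines. Psmb9 was 4.33-fold lower and the peptide transporter subunit Tap1 3.92-fold lower.

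The heavy chain H2-K1 read 2.65, 2.92 and 2.59 in LM8 and 4.62, 4.88 and 4.68 in Dunn, 4.01-fold lower (adjusted p = 0.0011). H2-Q6 was 5.63-fold lower, H2-Q7 4.21-fold and H2-Q2 3.91-fold. Heavy chain genes resemble each other closely, so a probe of 1 may read another and the single values are uncertain. B2m, the light chain, read 2.82, 3.30 and 2.80 in LM8 and 2.54, 4.13 and 3.46 in Dunn and was not called (difference -0.41, SE 0.42, adjusted p = 0.5). The count on the lower side was 9 to 14 under the other alternatives, with 9 when LM8 array 3 was left out, and 5 with 1 member higher on the table without scaling.

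Of 13 tested complement genes, whose products tag and lyse cells, 7 were lower in LM8 and 0 higher, with 7 and 0 also at an unadjusted p under 0.05 in limma and by the t-test. Hc, C2 and Cfb passed the filter through Dunn alone, where they are high by the filter. Of the 8 members well above background on all 6 arrays 4 were lower, against 7.37% of all genes of that kind. On the table without scaling 4 of the 13 were lower, and the median turned from -1.06 to -0.19. Beside Hc, C2 was at background in LM8 and read -0.82, -0.65 and -0.13 in Dunn, at least 79.8-fold lower. Cfb, factor B of the alternative pathway, was at least 7.99-fold lower. C1ra, a protease of the C1 complex, read 0.29, 0.45 and 0.20 against 2.70, 2.53 and 2.63, 4.95-fold lower. C1s1 was 2.69-fold, Masp2 2.44-fold and the inhibitor Serping1 2.09-fold lower. C3, the hub of the cascade, was not called (-0.54, adjusted p = 0.56).

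Of 28 tested interferon response genes, which cells switch on against viruses, 9 were lower in LM8 and 0 higher. That is 32.1% against 13.5% of all genes, and the median difference of the list was -0.87. At an unadjusted p under 0.05 in limma 15 were lower and 1 higher, and the t-test called 8 lower and 0 higher. Gbp7, a guanylate-binding protein, was at least 5.36-fold lower. Rtp4 was 6.23-fold lower, Gbp3 5.25-fold and the exonuclease Isg20 4.90-fold. Ddx58, the RNA sensor RIG-I, read -1.77, -1.90 and -1.79 in LM8 and 0.08, -0.07 and -0.04 in Dunn, 3.51-fold lower (adjusted p = 0.00089). Its 3 arrays per line lay within a narrow range and did not overlap. Isg15 (-0.68, adjusted p = 0.15) and Irf7 (-0.85, adjusted p = 0.55) were not called. On the table without scaling 4 members were lower and 2 higher, with a median of -0.01, and 5 were lower without LM8 array 2.

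**Figure D3:**
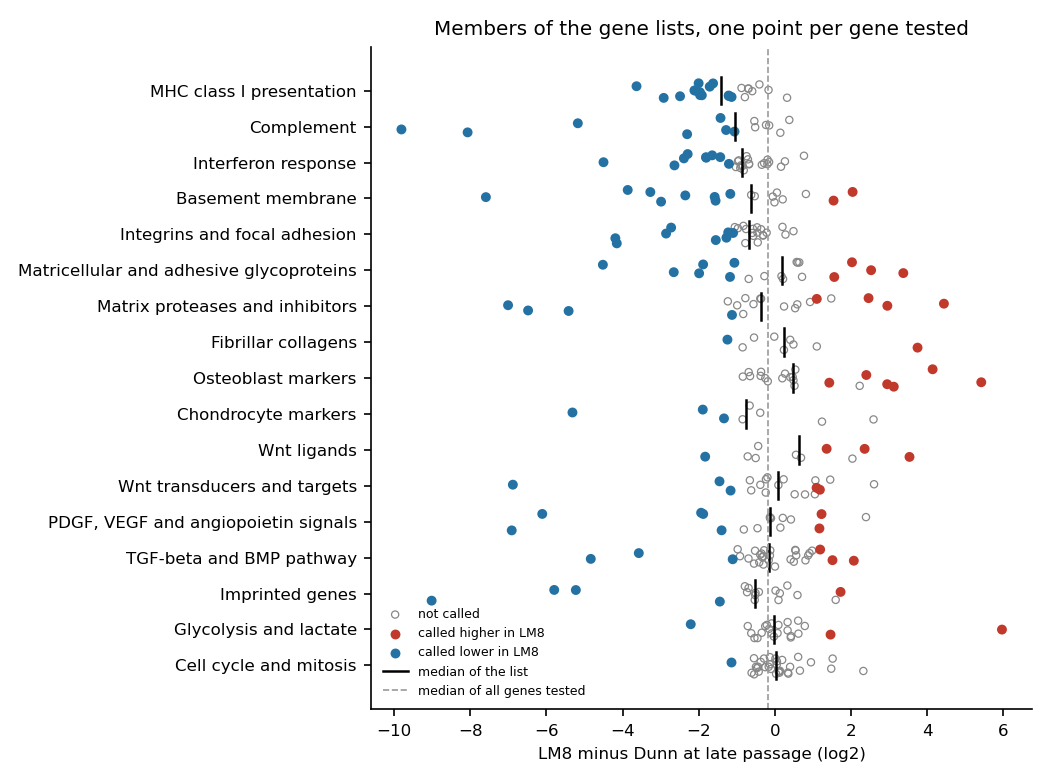
Differences between late LM8 and late Dunn cells (x axis, log2) for the tested members of gene lists, 1 list per line and 1 point per gene, with called genes filled in red where higher and in blue where lower in LM8, and genes not called open. Black bars are list medians and the dashed line is the median of all genes tested, -0.18. Called class I, complement and interferon genes lie on the left and called osteoblast genes on the right, directions that are relative to the scaling.

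Of 17 tested genes for laminins and their partners in basement membranes, the sheets of matrix to which cells bind, 8 were lower in LM8, 2 higher and 7 not called. The calls were 58.8% of those tested, against 13.5% of all genes. Of the 12 well above background on all 6 arrays 6 were lower and 1 higher. The t-test called 6 lower and 0 higher, and limma without LM8 array 2 called 5 lower and 0 higher. Lama1, a laminin alpha chain, was at background in LM8 and read -1.5, -0.88 and -1.05 in Dunn, at least 52.2-fold lower (adjusted p = 4.9e-05). The beta chain Lamb1 read -2.53, -2.36 and -1.91 in LM8 against 1.16, 0.79 and 1.07 in Dunn, 9.67-fold lower. Each LM8 array lay below each Dunn array in both genes. Nid2, which links laminin to collagen, was 7.95-fold lower and perlecan, Hspg2, 5.12-fold lower. Col4a2, a chain of basement membrane collagen, was at least 4.41-fold lower, a call that 8 of 18 alternatives lost, among them the floor on dim signals, normexp and the t-test. Col4a1, Lama4 and Lamb2 were 2.95-fold, 3.0-fold and 2.25-fold lower. The Col4a1 call held under 11 of 19 alternatives. Col18a1, the parent of endostatin, was 2.90-fold higher. On the table without scaling 5 members were lower and 3 higher, and the median turned from -0.63 to 0.24.

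Of 26 tested integrins and focal adhesion genes, which tie cells to this matrix, 8 were lower in LM8 and 0 higher. That is 30.8% against 13.5% of all genes. At an unadjusted p under 0.05 in limma 17 were lower and 0 higher, and the t-test called 7 lower and 0 higher. Itga11, the alpha chain of a collagen receptor, read -1.66, -2.35 and -2.49 in LM8 and 1.94, 2.01 and 2.13 in Dunn, 18.3-fold lower (SE 0.25 on the log2 scale, adjusted p = 0.0003). Itga8 was 7.26-fold lower and the laminin receptor chain Itga3 6.62-fold lower. These 3 alpha chains were lower under every alternative setting. The kinase Src was at background in LM8, at least 7.61-fold lower. The Src call held under 13 of 18 alternatives, and was lost by the t-test and without any 1 LM8 array. Focal adhesion kinase, Ptk2, was 2.42-fold lower, the talins Tln2 and Tln1 2.94-fold and 2.15-fold, and zyxin, Zyx, 2.34-fold. Itgb1, the beta chain that pairs with many alpha chains, was not called (-0.46, SE 0.16, adjusted p = 0.088). On the table without scaling 4 members were lower and 2 higher, and the median turned from -0.68 to 0.19. Leaving out LM8 array 2 gave 5 lower.

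Matricellular and adhesive glycoproteins went both ways, with 4 of 18 tested members higher in LM8 and 6 lower. The share called was 55.6%, against 13.5% of all genes. On the table without scaling 7 were higher and 2 lower, and 3 were lower without LM8 array 1 or LM8 array 2. Fbln2 was 10.3-fold higher and well above background on 2 of 3 Dunn arrays, Sparcl1 5.75-fold, Tgfbi 4.06-fold and the tenascin Tnxb 2.94-fold higher. Fbln1 was at background in LM8, at least 6.23-fold lower, a call that 7 of 18 alternatives lost, among them the floor on dim signals and leaving out any 1 LM8 array. The cartilage oligomeric matrix protein, Comp, was 6.31-fold lower, Ccn5 3.98-fold, Ccn1 3.70-fold and Thbs3 2.09-fold. Fibronectin, Fn1, read 3.35, 3.35 and 3.71 in LM8 and 4.36, 5.01 and 4.58 in Dunn, 2.27-fold lower (adjusted p = 0.02). The Fn1 call held under 11 of 19 alternatives, and was lost under quantile normalization and without any 1 LM8 array. Osteopontin, Spp1, was not called (-0.69, adjusted p = 0.19).

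Small leucine-rich proteoglycans, which shape collagen fibrils, also split, with 2 of 7 tested members higher and 2 lower. The share called was 57.1%, against 13.5% of all genes. Of the 3 well above background on all 6 arrays 1 was lower and 0 higher. The other called members passed the filter through 1 line alone, where they are high by the filter. Lumican, Lum, read 2.25, 1.88 and 2.13 in LM8 and -6.02, -4.04 and -3.95 in Dunn, 108-fold higher (SE 0.57 on the log2 scale, adjusted p = 0.0011), and was well above background on 2 of 3 Dunn arrays. Osteomodulin, Omd, was at least 30.3-fold higher. Fibromodulin, Fmod, read 0.30, 0.03 and 0.40 against 4.46, 4.67 and 4.58, 20.1-fold lower, and Epyc was at least 5.51-fold lower. Lum and Fmod thus stood in opposite order in the lines, with no overlap in either.

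Of 9 tested fibrillar collagens 1 was higher and 1 lower in LM8, 22.2% against 13.5% of all genes. Col24a1 was at least 4.30-fold higher and Col27a1 2.38-fold lower. The Col24a1 call held under 9 of 18 alternatives and was lost with the slide as a block (adjusted p = 0.06). Col1a1, the main collagen of bone, read 5.22, 5.34 and 5.23 in LM8 and 4.56, 4.98 and 4.80 in Dunn and was not called (0.48, SE 0.17, adjusted p = 0.093).

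Among 20 tested matrix proteases and inhibitors 4 were higher in LM8 and 4 lower, against 6 and 3 without scaling. With scaling the share called was 40%, against 13.5% of all genes. The gelatinase Mmp2 read 0.10, 0.10 and 0.40 in LM8 and -2.89, -2.72 and -2.63 in Dunn, 7.73-fold higher (adjusted p = 0.00026). The collagenase Mmp13 read -6.83, -6.40 and -6.56 against 0.42, -0.66 and -0.10, 89.4-fold lower, with 2 of 3 LM8 arrays well above background. The inhibitors differed in opposite directions. Timp4 read 1.25, 1.37 and 0.95 in LM8 and -2.47, -3.68 and -3.58 in Dunn, 21.6-fold higher, and Timp1 was 5.49-fold higher, while Timp2 was 129-fold lower. Timp3 was not called (-0.37, adjusted p = 0.3). Of the aggrecan-cleaving family Adamts9 was 42.8-fold lower, with 1 of 3 LM8 arrays well above background and a log2 difference of -5.55 to -2.81 over the alternatives. Adamts5 was 2.19-fold lower. Adamts1 was 2.14-fold higher, a call lost with the slide as a block (adjusted p = 0.051). The Adamts1 call held under 7 of 19 alternatives.

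The labels describe both lines as osteoblastic. Of 22 osteoblast markers on the arrays 21 passed the filter, among them Runx2, Sp7, Alpl, Ibsp, Bglap2 and Col1a1. In LM8 6 were higher and 0 lower, 28.6% against 13.5% of all genes. At an unadjusted p under 0.05 in limma 10 were higher and 2 lower, and the t-test called 4 higher and 0 lower. Beside Omd, the homeobox gene Msx2 read -1.71, -2.06 and -2.24 in LM8 and -6.10, -5.98 and -6.34 in Dunn, 17.6-fold higher, with 1 of 3 Dunn arrays well above background and a log2 difference of 1.5 to 5.00 over the alternatives. Phex and Dmp1, genes of osteocytes and phosphate handling, were 8.69-fold and 7.70-fold higher, and Ifitm5, a protein of mineralising osteoblasts, 5.27-fold higher. Phex, Dmp1 and Ifitm5 were well above background on 2 of 3 Dunn arrays, and these 5 genes passed the filter through LM8 alone. Of the 14 markers well above background on all 6 arrays 1 was called, alkaline phosphatase Alpl.

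Alpl read 1.70, 2.72 and 2.32 in LM8 and 0.32, 1.39 and 0.75 in Dunn, 2.69-fold higher (SE 0.37 on the log2 scale, adjusted p = 0.045). The lines did not overlap, but the call was lost under 9 of 19 alternatives, among them the one without the first Dunn array (adjusted p = 0.059). Runx2 (0.53, adjusted p = 0.32), Sp7 (-0.37, adjusted p = 0.31) and Ibsp (-0.38, adjusted p = 0.31) were not called. The number of markers called higher ran from 1, over probes above background on all 6 arrays, to 12 on the table without scaling, and was 3 without LM8 array 2.

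Of 8 tested chondrocyte markers 3 were lower in LM8 and 0 higher, 37.5% against 13.5% of all genes. At an unadjusted p under 0.05 in limma 5 were lower and 1 higher, and the t-test called 3 lower and 0 higher. Hapln1, which links aggrecan to hyaluronan, read -4.41, -4.02 and -3.66 in LM8 and 0.25, 2.15 and 1.46 in Dunn, 39.9-fold lower (adjusted p = 0.0016). Col10a1 was 3.72-fold and Col9a2 2.53-fold lower. Pparg, the regulator of fat cell formation, read -2.72, -3.02 and -2.92 in LM8 and 3.21, 2.85 and 3.17 in Dunn, 62.3-fold lower (SE 0.18 on the log2 scale, adjusted p = 3.2e-05). Both lines were tight and far apart for Pparg. The lipid droplet protein Plin1 was 2.71-fold lower, and the fat cell genes Adipoq, Fabp4, Lpl, Cidec and Lep did not pass the filter. The muscle actin Acta1 was 12.8-fold lower and the embryonic myosin Myh3 2.57-fold higher, while Myod1, Myog, Myf5 and Ckm did not pass the filter.

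Markers of blood, vessel and epithelial cells gave no call. Of these, 6 of 11 macrophage and lymphocyte markers on the arrays were tested, 3 of 8 endothelial and 1 of 9 epithelial markers. In each list limma gave 0 calls and 0 members at an unadjusted p under 0.05, and the t-test gave 0. Ptprc, Adgre1, Tyrobp, Cdh5, Tek, Epcam and Cdh1 did not pass the filter. Csf1r, Itgam, Lyz2, Cd14, Cd3e, Cd4, Pecam1, Kdr, Vwf and Krt14 passed it. Of the tested markers, 5 macrophage and lymphocyte, 2 endothelial and 1 epithelial were well above background on all 6 arrays. In bulk samples fewer cells of a kind and less RNA per cell cannot be told apart.

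Wnt ligands signal through Frizzled receptors and beta-catenin to Tcf and Lef factors and promote bone formation. Of 10 tested ligands 3 were higher in LM8 and 1 lower, 40% against 13.5% of all genes. Wnt1 read -0.35, -0.37 and -0.69 in LM8 and -3.0, -2.73 and -2.75 in Dunn, 5.11-fold higher (SE 0.18 on the log2 scale, adjusted p = 0.00069). Wnt8b was 11.6-fold higher, with 1 of 3 Dunn arrays well above background and a log2 difference of 1.19 to 4.40 over the alternatives. Wnt10b, which favours bone over fat, was 2.56-fold higher, a call lost with the slide as a block (adjusted p = 0.066). The Wnt10b call held under 9 of 19 alternatives, and was also lost under quantile normalization, by the t-test and without any 1 LM8 array. Wnt6 was 3.56-fold lower. Of 11 tested receptors Fzd7 was called (9.09%), 2.93-fold higher.

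Of 7 tested secreted Wnt antagonists 2 were higher in LM8, 28.6% called against 13.5% of all genes. Sfrp4, which binds Wnt ligands, read 2.01, 1.59 and 1.58 in LM8 and -0.63, -0.66 and -0.66 in Dunn, 5.2-fold higher, and Frzb was at least 2.79-fold higher, a call that 5 of 18 alternatives lost, among them the floor on dim signals and normexp. Among 19 tested transducers and targets 2 were higher and 3 lower, against 8 and 1 without scaling. With scaling the share called was 26.3%. Lef1, a transcription factor at the end of the pathway, was at background in LM8 and read -1.70, -1.88 and -2.64 in Dunn, at least 27.3-fold lower. Its relative Tcf7 read 1.10, 1.58 and 1.19 in LM8 and -0.01, 0.26 and 0.09 in Dunn, 2.26-fold higher (adjusted p = 0.012). Myc was 2.74-fold lower, the receptor ligase Rnf43 2.24-fold lower and the Wnt deacylase Notum 2.13-fold higher. The Notum call held under 10 of 19 alternatives. Axin2, a common readout of beta-catenin, was not called (0.23, adjusted p = 0.79).

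In the Hedgehog pathway, in which ligands bound to Ptch1 release Smo and the Gli factors, 1 of 11 tested members was called. That is 9.09% against 13.5% of all genes. The ligand Ihh, which couples cartilage growth to bone formation, read -3.94, -3.50 and -3.62 in LM8 and -5.87, -5.29 and -5.16 in Dunn, 3.37-fold higher (adjusted p = 0.0076). It was dim, with 2 of 3 Dunn arrays well above background, and was not called after quantile normalization or normexp. Ptch1 (0.44, adjusted p = 0.29) and Gli1 (0.66, adjusted p = 0.18), whose transcripts follow the activity of the pathway, were not called.

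Of 16 tested genes of PDGF, VEGF and angiopoietin signalling 5 were lower in LM8 and 2 higher. The share called was 43.75%, against 13.5% of all genes. On the table without scaling 2 were lower and 5 higher, and 5 were lower and 0 higher under normexp and without LM8 array 2 or LM8 array 3. Beside Pdgfb, the receptor Pdgfrb was 3.84-fold and the ligand Pdgfc 3.69-fold lower. Vegfc, a growth factor of lymphatic vessels, was at background in LM8 and read -1.34, -2.61 and -1.93 in Dunn, at least 29.6-fold lower (adjusted p = 0.00047). Angpt4 was 2.64-fold lower, Angpt2 2.25-fold higher and the co-receptor Nrp1 2.33-fold higher. Vegfa was not called (0.14, adjusted p = 0.64).

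Among 31 tested genes of TGF-beta and BMP signalling 3 were higher in LM8 and 3 lower, 19.4% against 13.5% of all genes. Without scaling 9 were higher and 2 lower. With scaling 0 were higher without Dunn array 3, LM8 array 2 or LM8 array 3. The bone morphogenetic protein Bmp7 read -3.66, -3.77 and -4.09 in LM8 and 0.02, -0.37 and -0.44 in Dunn, 11.9-fold lower (adjusted p = 0.00026). Inhbb, an activin chain, was 28.6-fold lower and the transducer Smad1 2.16-fold lower. The target Id2 was 2.85-fold higher. Bmpr1a was 2.28-fold higher with 3 LM8 and 2 Dunn arrays in the fit. Smad7 was 4.20-fold higher and above background on 2 of 3 Dunn arrays. Both calls were lost with the slide as a block (adjusted p = 0.087 and 0.069). The Bmpr1a call held under 10 of 19 alternatives and the Smad7 call under 9 of 18.

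Among 9 tested transcription factors of the mesenchymal transition 2 were higher in LM8 and 3 lower, 55.6% against 13.5% of all genes. Without scaling 4 were higher and 1 lower. With scaling 1 was lower without Dunn array 3 or any 1 LM8 array. Snai1 read -5.80, -5.54 and -4.28 in LM8 and -0.95, -0.98 and -1.22 in Dunn, 17.8-fold lower (adjusted p = 0.0019). Foxc2 was 3.08-fold lower, a call that held under 11 of 19 alternatives. Snai2 was 2.13-fold lower with 2 LM8 and 3 Dunn arrays in the fit, a call lost with the slide as a block (adjusted p = 0.13). The Snai2 call held under 8 of 19 alternatives. Prrx1, a factor of limb mesenchyme, read 1.64, 1.59 and 1.78 in LM8 and -0.97, -0.12 and -1.40 in Dunn, 5.66-fold higher, and Prrx2 was at least 7.65-fold higher. Snai1 and Prrx1 did not overlap between the lines.

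Genes of cell division gave 1 call among 33 tested members, 3.03% against 13.5% of all genes. It was the phosphatase Cdc25a, 2.21-fold lower in LM8 (adjusted p = 0.01). Mki67 differed by 0.19, Plk1 by 0.03 and Ccnb1 by 0.05, none of them called. In the p53 and Rb axis 1 of 21 tested members was lower and 2 higher, 14.3% against 13.5% of all genes. Cdkn1a, the p53 target p21, read 1.5, 1.43 and 1.27 in LM8 and 2.84, 2.65 and 2.88 in Dunn, 2.62-fold lower (adjusted p = 0.0035). Trp53inp1 and Cdkn2c were 2.36-fold and 3.56-fold higher, calls lost with the slide as a block (adjusted p = 0.097 and 0.078). The call of Trp53inp1 held under 5 of 19 alternatives and that of Cdkn2c under 9 of 19. Trp53 was not called (-0.87, adjusted p = 0.15).

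Of 9 tested genes of death receptor signalling 1 was called, 11.1% against 13.5% of all genes. Tnfrsf10b, the mouse receptor of the death ligand TRAIL, read -6.87, -6.72 and -6.58 in LM8 and -1.05, -0.21 and -1.19 in Dunn, 60.0-fold lower (SE 0.29 on the log2 scale, adjusted p = 0.00016), with 1 of 3 LM8 arrays well above background. Its log2 difference was -6.09 to -3.37 over the alternatives. Fas differed by 0.07 (SE 0.29, adjusted p = 0.88). Of 23 tested genes of glycolysis and lactate 3 were called, 13% against 13.5% of all genes. Beside Slc16a3, the lactate dehydrogenase chain Ldhb was 2.75-fold higher and the aldolase Aldoc 4.63-fold lower. Hk2 (-0.71), Gapdh (0.33) and Ldha (-0.26) were not called.

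Of 18 tested imprinted genes, which are read from 1 parental copy, 4 were lower in LM8 and 1 higher. That is 27.8% against 13.5% of all genes. Of the 12 well above background on all 6 arrays 1 was lower and 0 higher, against 11.1% called of all genes of that kind. The other called members were not above background on all 6 arrays, so the filter bears on their direction. Sgce and Peg10 were both at background in LM8, Peg10 reading -3.29, -3.42 and -3.26 in Dunn and being at least 11.6-fold lower. The zinc finger gene Plagl1 read -3.39, -2.26 and -2.47 in LM8 and 2.55, 2.44 and 2.57 in Dunn, 37.5-fold lower (adjusted p = 0.00029). Slc22a18 was 2.73-fold lower and Peg3 3.30-fold higher, with 2 of 3 Dunn arrays well above background. The Peg3 call held under 10 of 18 alternatives. Of 27 germline genes on the arrays 8 were tested, with 4 higher and 2 lower, and 2 were higher without Dunn array 3 or any 1 LM8 array. The calls were 75% of those tested, against 13.5% of all genes. Of the 3 germline genes well above background on all 6 arrays 1 was higher and 2 lower. The other members called higher passed the filter through LM8 alone, where they are high by the filter. Beside Pnma5, Pnma3 was 22.3-fold higher, with 2 of 3 Dunn arrays well above background, and Rhox5 3.1-fold lower. Of 27 tested Hox genes 1 was higher and 1 lower, 7.41% against 13.5% of all genes. The higher one, Hoxc13, was at least 5.70-fold higher.

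The same comparison at early passage used other arrays and tested 12029 genes, of which 2167 were called (18.0%). One early Dunn array was weak, with 39.4% of its probes well above background. Over the 11865 genes tested at both passages 1520 were called late and 2112 early. Of these 941 were called in both with the same direction, 61.9% of the late calls and 44.6% of the early calls, and 14 in opposite directions. The late gap was tested directly against the early gap over all 12 arrays and 12671 genes, and 309 genes were called (2.44%), 198 of which were also called in the late comparison.

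Cd99 was 6.68 higher (log2) in LM8 late and -0.94 apart early (adjusted p = 0.063), a change of 7.62 (SE 0.58, adjusted p = 0.00011). Its mean level in Dunn was 4.40 early and -3.84 late, against 3.46 and 2.84 in LM8. The Dunn level of Tmsb4x went from 3.93 early to background late (adjusted p of the change in the gap = 0.0022). That of Catsperz went from 2.61 to background (adjusted p = 6.9e-07). For these 3 genes the lines stood closer early, and the Dunn level differed more between the passages than the LM8 level.

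For other genes the LM8 level differed more. Rbms1 stood at -0.27 in early and -5.59 in late LM8, a change in the gap of -6.23 (SE 0.30, adjusted p = 8.5e-06). Arxes2 (adjusted p = 6.4e-05) and the EGF repeat gene Megf6 (adjusted p = 0.00056) were well above background on all early LM8 arrays and on no late one. Trpa1, an ion channel, was well above background in LM8 and not in Dunn early, and in Dunn and not in LM8 late (adjusted p = 0.00056). Pnma5 was not above background in either line early and was so in LM8 late (adjusted p = 1.7e-06).

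Wider late gaps also passed the test for Timp2 (-5.14, adjusted p = 0.00076), Lamb1 (-2.95, adjusted p = 0.0047) and Itga11 (-2.88, adjusted p = 0.0023). For Lama1 it passed too (adjusted p = 0.0002), with LM8 above background early and at background late. Pkdcc and Slit3 were well above background in Dunn and at background in LM8 at both passages. Pdgfb, Trp53i11 and Pparg differed early by -6.40, -7.69 and -6.68, and their changes of -0.51, -0.52 and 0.72 did not pass the test (adjusted p = 0.6, 0.7 and 0.38).

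**Figure D4:**
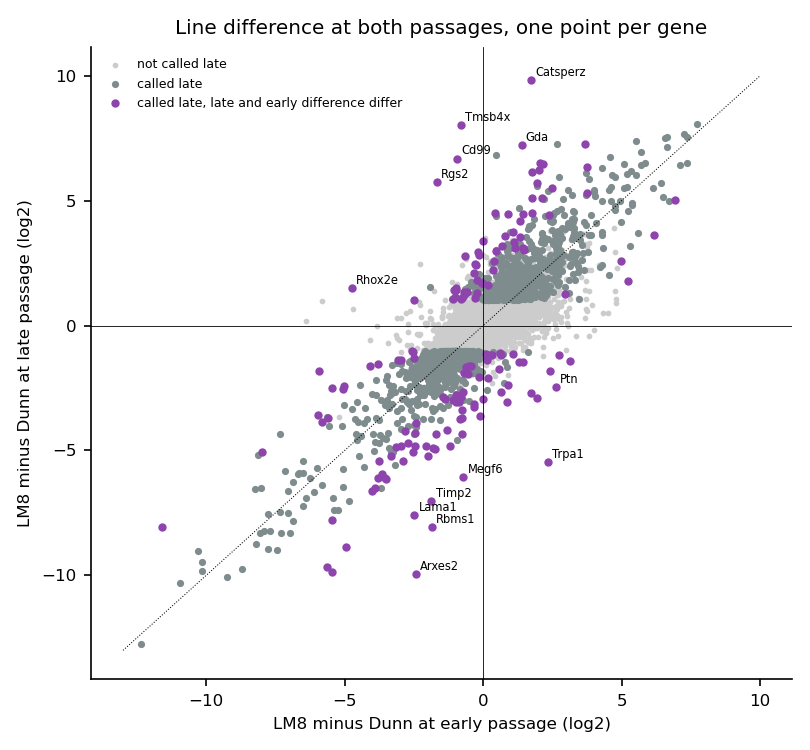
Difference between LM8 and Dunn at late passage (y axis, log2) against the same difference at early passage (x axis, log2), 1 point for each of the 11865 genes tested in both. Dark grey points are genes called late, purple points those called late whose late and early differences themselves differed, and names mark a change of over 5. Values of genes at background in 1 group are readings near it. Catsperz, Tmsb4x and Cd99 lie far above the dotted line of equal differences, and Arxes2, Rbms1 and Trpa1 far below it.

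Calls were spread unevenly over the chromosomes. On chromosome 12, 11.1% of 425 tested genes were higher in LM8 and 3.29% lower, against 5.7% and 7.8% over all genes. On chromosome X 9.52% of 420 genes were higher and on chromosome 13 8.61% of 453. On chromosome 17, which holds the class I genes, 13% of 640 genes were lower, and on chromosomes 6, 9, 14 and 15 between 11.4% and 11.9%. With each gene centred on its mean and each array on its median, the genes of chromosome 12 had medians of 0.22, 0.18 and 0.16 on the LM8 arrays and -0.13, -0.16 and -0.22 on the Dunn arrays. Those of chromosome 13 were 0.14, 0.16 and 0.13 against -0.18, -0.13 and -0.14. The lines did not overlap on 16 of 20 chromosomes, which is a description with no test, and the copy number of these chromosomes was not analysed here.

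**Figure D5:**
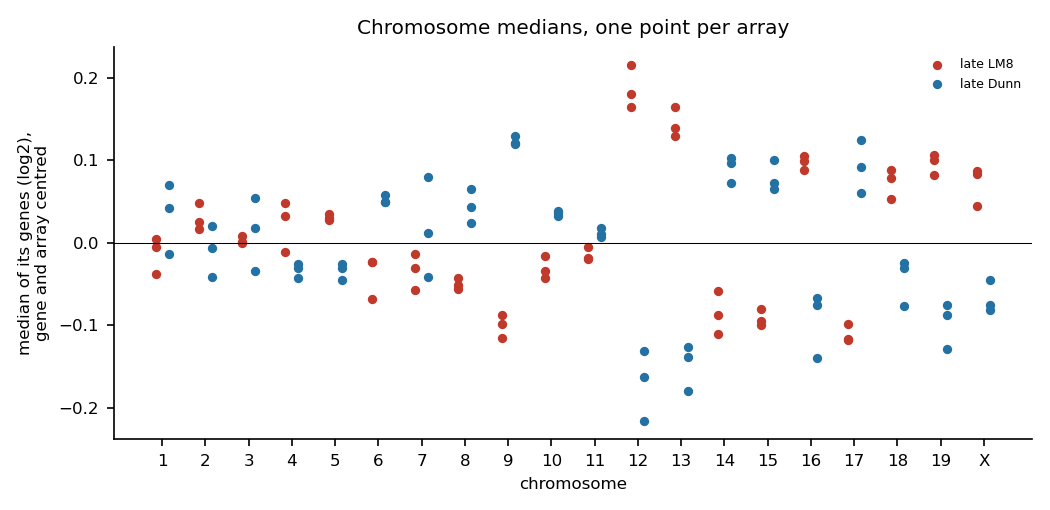
Median of the genes of each chromosome (y axis, log2, each gene centred on its mean over the 6 arrays and each array on its median) for the late LM8 arrays (red) and late Dunn arrays (blue), 1 point per array. The centring makes the lines mirror each other. Chromosomes 12 and 13 lie highest in LM8, chromosome 12 at up to 0.22, and chromosomes 17 and 9 lowest.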

How the data were processed

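Total RNA of 4 groups of 3 samples was labelled with Cy3 and hybridised to 12 one-colour Agilent mouse arrays on 3 slides. The scanner intensity values were deposited by the authors as the background-subtracted processed signal of Agilent Feature Extraction (version 10.7.3 in the submitters' processing notes), with no scaling between arrays, and their table of all arrays held the same signals. Of 43020 spots that were not controls, outlier spots were left out and the spots of each of 39429 probes averaged. Levels were log2 signals minus the 75th percentile of the array. Probes were named through the platform annotation, and 26581 (67.4%) matched 1 gene, 20144 genes in all. The number of arrays limits the precision.

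A 2-group linear model of the late arrays was fitted to 21754 probes (limma 3.58.1, moderated by eBayes, R 4.3.3). P-values were adjusted by Benjamini-Hochberg, and the early arrays were treated likewise. The late gap was set against the early gap as an interaction over all 12 arrays, called at an adjusted p under 0.05. A gene took the tested probe with the highest mean over the 6 late arrays. The late fit was also run on simulated arrays with independent noise. These had no slide effect and no array that stood apart, so the run does not bear on either. Same-numbered LM8 and Dunn arrays lay on 1 slide, and their deviations from the group means correlated at 0.23, 0.18 and 0.11. Those of differently numbered arrays correlated at -0.27 to 0.14. The numbers were taken to pair the samples, and the replicate block (slide) was an alternative fit. Other alternatives were quantile normalization, the percentile over probes above background, normexp (offset 50, on the median spot signal), the deposited table, no filter and a stricter one, a floor, 1 fit over 12 arrays, a t-test, the mean of the probes of a gene, and each array left out. Array weights and leaving out slide 1 were added after the data were seen.

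Named are the 8 highest and 8 lowest called genes above background on all 6 arrays, the 6 highest bounds in each direction, the 4 widest changes between passages in each direction, and up to 5 called members of each list. Further list members were named after their values were seen. The values of 2 called list members are not reported here. The members and lists were chosen with earlier results of these data known.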

Additional observations from a re-analysis of the deposited data

Results flagged for a closer look

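The difference between the lines itself differed between late and early passage in 309 genes by limma's interaction test. Cd99 and Rbms1, well above background on all arrays of all 4 groups, had changes of the gap (late minus early, log2) of 7.62 and -6.23. The fitted changes of Pnma5 (10.53), Tmsb4x (8.81), Catsperz (8.10), Trpa1 (-7.78), Arxes2 (-7.51) and Megf6 (-5.36) have no order among them. Pnma5, Tmsb4x and Catsperz were not above background in late Dunn, and Trpa1, Arxes2 and Megf6 were not in late LM8, so the sizes of these 6 changes depend on readings near background. Pnma5 was also not above background in either line early, so its value holds a difference between background readings. The weak early Dunn array enters all 8 values, and its part in them was not tested beyond leaving each array out in turn.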

How the results depend on the processing

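For the late comparison (1691 genes called, 714 higher and 977 lower) the counts stayed within 1.5 times under quantile normalization, the percentile over probes above background, normexp, the floor, 1 fit over 12 arrays and the mean of the probes of a gene. The deposited table without scaling gave 2884 calls (2531 higher, 353 lower), its median difference being 0.73 against -0.14 over probes. Without the filter 769 genes were called (252 higher, 517 lower), with more genes tested. Calls higher in LM8 numbered 462 over probes above background on all arrays, 388 by the t-test and 1125 with array weights. Leaving out 1 array gave 821 to 2128 calls, 270 to 1014 higher and 551 to 1114 lower. With the replicate block (slide) 1607 genes were called, 1496 of them among the 1691, and 10 of 174 named or called list genes lost the call.

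The early count of 2167 became 879 under normexp, 5672 without scaling, 919 without the filter, 1112 by the t-test, 1037 without slide 1 and 761 to 3123 with 1 array left out. The count of 309 changed gaps became 84 under normexp, 170 without scaling, 122 without the filter, 169 over probes above background on all arrays, 497 with array weights and 149 to 428 with 1 array left out. Under normexp the changes of Trpa1 (-1.0, adjusted p = 0.59) and Megf6 (-0.63, adjusted p = 0.68) no longer passed. The causes of these shifts were not tested. Of the 174 genes, 83 kept the call under all alternatives that gave a value and 0 changed sign. Dim probes also limit the folds, since a signal at background gives only a bound.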

Other observations

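In further lists 25% of 12 tested Notch genes, 25% of 8 insulin-like growth factor genes and 20% of 15 fibroblast growth factor genes were called. The shares were 14.3% of 7 ezrin family genes, 12.5% of 8 S100 genes, 22.2% of 9 chemokine genes and 25% of 4 cadherins. Over all genes the share was 13.5%. In the Notch pathway Hey1, a target, was 6.08-fold higher in LM8 and the ligand Jag1 3.17-fold higher. Lfng was 2.02-fold lower, a call lost with the replicate block (adjusted p = 0.07). The Lfng call held under 7 of 19 alternatives. Among binding proteins of insulin-like growth factors Igfbp6 was 3.06-fold higher and Igfbp4 3.74-fold lower. Of the fibroblast growth factors Fgf15 was 6.94-fold higher and Fgf1 4.64-fold lower. The Fgf15 call held under 12 of 19 alternatives. Fgf9 was called higher, with 1 of 3 Dunn arrays well above background, but 11 of 18 alternatives lost the call, the floor on dim signals among them, and its log2 difference was 0.45 to 3.34 over them. Slc9a3r2, a scaffold that binds ezrin, was 9.93-fold higher, whereas ezrin itself (Ezr, -0.83, adjusted p = 0.023) and Cd44 (-0.82, adjusted p = 0.045) differed by less than 2-fold. The Slc9a3r2 call held under 12 of 19 alternatives, with a log2 difference of 1.58 to 4.18 over them. It was lost by the t-test, by the mean of its probes and without any 1 LM8 array. Of the other lists S100a1 was 2.44-fold lower, the chemokine Cxcl5 2.78-fold lower and P-cadherin, Cdh3, at least 4.63-fold lower. The receptor Ccr7 was 12.9-fold lower, with 2 of 3 LM8 arrays well above background. The Ccr7 call held under 6 of 18 alternatives and was lost with the replicate block (adjusted p = 0.076).

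Called genes stood side by side in 8 runs of at least 4 neighbouring tested genes with the same direction, 34 genes in all, in the gene order of RefSeq GRCm38.p6. These runs were chosen after the values were seen and carry no test. On chromosome 17 H2-DMa, H2-DMb1, Psmb9, Tap1 and Psmb8 were lower in LM8. On chromosome 6 the complement proteases C1rl, C1ra, C1s1 and C1rb were lower, and on chromosome 7 Fxyd5, Fxyd7, Fxyd1 and Lgi4, with Lgi4 26.0-fold lower. On chromosome 4 Nbn, Osgin2, Ripk2 and Cpne3 were higher, by 2.08-fold to 3.95-fold. On chromosome X the Ssx family genes Ssxb10, Ssxb9, Ssxb1, Ssxb8 and Ssx9 were higher. Their sequences are alike, so the values of single members are uncertain.

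Xist, the RNA of the inactive X chromosome, was well above background on all 6 late arrays and was not called (-0.10, SE 0.38), while Ddx3y, Eif2s3y, Kdm5d and Uty did not pass the filter.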
